A study of Mus musculus with 16 samples.

Results

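The genes described here are the translation initiation and elongation factors measured in rotator cuff muscle of 2 mouse strains. They were chosen by name alone: every gene in the deposited count table whose symbol starts with Eif or Eef followed by a digit, without the Eif4ebp genes, which encode repressors, and without Eif2s3y. The rule found 60 of the 11710 genes in the table, 48 initiation factors (Eif names) and 12 elongation factors (Eef names), and all 60 entered the tests. The mouse annotation (GENCODE M21) lists 64 protein-coding genes under the same rule. A few names cover enzymes that act on a factor, such as kinases and methyltransferases, and they were kept.

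The study removed a rotator cuff tendon and cut the nerve supply (tenectomy with denervation) in C57BL/6J mice, written BL6, and in MRL/MpJ mice, written MRL, a strain known for unusual wound healing. Unoperated mice of each strain were the controls, and each of the 4 groups (unoperated BL6, operated BL6, unoperated MRL, operated MRL) held 4 samples of total RNA from whole muscle. No allele, transgene or drug is named for any group. The sample labels name the supraspinatus and the series text the infraspinatus, so the tissue is called rotator cuff muscle here. Age, sex and the time after surgery are not given in the sources used here.

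Translation starts when initiation factors load the small ribosomal subunit with initiator tRNA and bring it to the capped end of an mRNA. eIF2 carries the initiator tRNA and eIF2B reloads eIF2 with GTP, a step that the 4 eIF2 kinases shut down under stress. The eIF4F complex joins the cap-binding protein eIF4E, the scaffold eIF4G and the RNA helicase eIF4A, and eIF3 holds the small subunit while eIF1, eIF1A and eIF5 set the start site. During elongation eEF1A delivers each aminoacyl-tRNA, eEF1B recharges eEF1A with GTP, and eEF2 moves the ribosome along, under the brake of the kinase eEF2K. Adult muscle fibres, like neurons and heart muscle, are known for using the eEF1A2 form in place of eEF1A1, which most other cells use.

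In 2 pairs of close paralogs, Eef1a1 with Eef1a2 and Eif4a1 with Eif4a2, the partners moved in opposite directions after surgery, so the reads that told the partners apart matter. Over the aligned coding sequence, Eef1a1 and Eef1a2 were identical at 1108 of 1386 bases (79.9%), and Eif4a1 and Eif4a2 at 950 of 1218 bases (78%). The 120-base stretches below are read from the GENCODE M21 transcripts (GRCm38), 5′ to 3′, with the bases at which the partners differ in capitals. They start at the first coding base in the Eef1a pair, at coding base 37 in Eif4a1 and at coding base 43 in Eif4a2, and they hold 18 and 24 differences.
Eef1a1: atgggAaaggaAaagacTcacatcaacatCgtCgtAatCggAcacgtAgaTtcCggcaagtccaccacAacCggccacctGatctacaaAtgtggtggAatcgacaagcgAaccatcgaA
Eef1a2: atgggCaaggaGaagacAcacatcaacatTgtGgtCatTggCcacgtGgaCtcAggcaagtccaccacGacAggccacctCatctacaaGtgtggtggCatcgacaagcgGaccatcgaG
Eif4a1: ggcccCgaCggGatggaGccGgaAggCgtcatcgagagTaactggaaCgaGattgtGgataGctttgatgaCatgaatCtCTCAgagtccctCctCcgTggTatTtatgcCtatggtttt
Eif4a2: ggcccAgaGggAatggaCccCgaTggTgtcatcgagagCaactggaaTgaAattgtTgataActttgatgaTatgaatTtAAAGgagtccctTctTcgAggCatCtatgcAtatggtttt
A read that covers any of the capital letters tells the partners apart. Near copies elsewhere in the genome are another matter. A search of the annotated transcripts found at least 1 copy with 95% identity or more over at least 50% of the coding sequence for 17 of the 60 genes, among them Eef1a1 (7 copies, up to 97.3% identical) and Eif4a1 (3 copies, up to 99.9%). The counting program and its rule for reads that fit several places are not given in the sources used here, so the levels of these 17 genes are uncertain by an unknown amount. The count table held such a match for 3 of the genes: Gm6548 for Eef1a1, Gm4366 for Eef1g, and Emd, which encodes the nuclear envelope protein emerin and has an annotated transcript with a stretch like Eif1, for Eif1. Gm6548 had means of 1.96 CPM in unoperated and 3.08 CPM in operated BL6 muscle and 0.735 and 1.74 CPM in MRL muscle, and Emd was called in neither strain (0.22, adjusted p = 0.0543, and -0.08, adjusted p = 0.472).

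Library totals ran from 24323862 to 43552964 counts, and the lowest count of any of the 60 genes in any sample was 65. Values are given as CPM, counts per 1000000 after scaling the library sizes by the trimmed mean of M values (TMM), and a level per kb divides CPM by the exonic length of the gene. The test throughout is edgeR's quasi-likelihood test with Benjamini-Hochberg adjustment over the 11709 genes tested, called at an adjusted p under 0.05. Nothing in the labels says that replicates came from separate animals, so p-values measure the spread between these samples. Along the line from the unoperated mean (0) to the operated mean (1) of the other samples of a strain, over all genes tested, unoperated MRL replicate 1 lay at 0.44 and operated MRL replicate 4 at 0.53, each well toward the other group. The other MRL libraries lay at -0.12 to -0.04 and at 0.83 to 1.34, and the BL6 libraries at -0.14 to 0.17 and at 0.60 to 1.36. In BL6, operated replicate 2 at 0.60 also lay toward its unoperated group. The root mean square log2 deviation of a library from the rest of its group, over all genes tested, was 0.58 and 0.69 for operated BL6 replicates 2 and 4. It was 0.51 and 0.57 for the 2 MRL libraries. No BL6 libraries were left out together. The 2 MRL libraries were picked by position, so leaving them out tends to enlarge the fitted surgery changes. Values without them, p-values included, describe how much rests on them and are no support for a call. The mitochondrially encoded genes took 12.2% to 14.2% of the counts in unoperated and 17.4% to 23.8% in operated BL6 muscle, and 10.97% to 11.6% in unoperated and 11.8% to 24.9% in operated MRL muscle, where replicate 4 had the 11.8%, close to the unoperated level.

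After tenectomy and denervation, translation factor mRNAs moved in both directions, with most genes of eIF4F lower and, among others, Eef1a1 and Eif4a1 higher. In BL6 muscle 17 of the 60 genes rose, 20 fell and 23 were not called. Of all genes tested in this comparison 67.9% were called, 35.1% higher and 32.8% lower, so the 37 called genes are close to the share in the whole table. In MRL muscle 5 rose, 15 fell and 40 were not called, where 45% of all genes were called, 22.3% higher and 22.7% lower. Both strains together called 19 genes in the same direction, 5 higher and 14 lower, 18 genes were called in BL6 alone, Eif5a in MRL alone, and 0 in opposite directions. For 18 of the 19 shared genes the fitted change was larger in BL6 with all libraries in the fit. That count depends on the 2 MRL libraries that lay toward the other group. Without them the MRL changes of Eef1a2 and Eef2k were -1.32 and -1.31, against -1.24 and -1.16 in BL6. Those of Eef1a1 (1.32 against 1.87) and Eif3a (-1.25 against -1.35) remained larger in BL6. The same overlap was not counted over all genes, so these counts are not shown to be particular to translation factors. The plot of all 60 changes shows these directions by role.

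**Figure D1:**
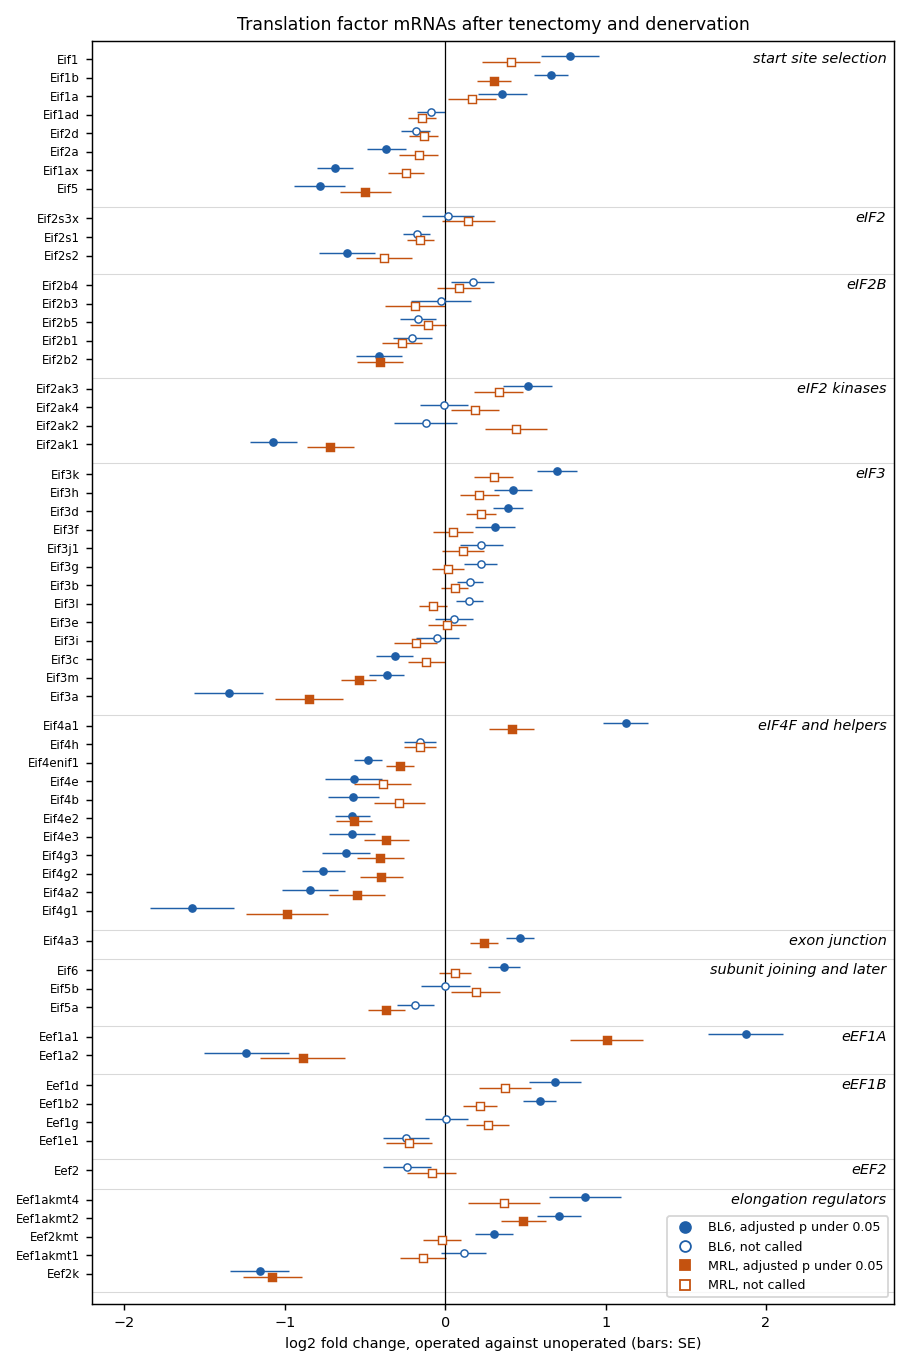
Each row is a gene, grouped by role, and the horizontal axis is the fitted log2 fold change of operated against unoperated muscle with its standard error, circles for BL6 and squares for MRL. Filled symbols were called. Most eIF4F genes lie left of 0 in both strains, and Eef1a1 (1.87 in BL6, 1.01 in MRL) lies farthest to the right.

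The MRL count rests on few libraries. It was 31 (14 higher, 17 lower) without unoperated replicate 1 and operated replicate 4 together, 23 and 30 without either of them alone, and 9 to 13 without any other single MRL library: 13 without unoperated replicate 2, 3 or 4, 11 without operated replicate 1, 13 without operated replicate 2 and 9 without operated replicate 3.

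Single calls differed in how firmly they stood. Of the 37 calls in BL6, 25 held under all 18 alternatives tried (other scalings, filters and tools, a replicate block, each BL6 library left out and the trend of change on gene length removed, described below). The other 12 were lost under at least 1: Eef1akmt2, Eef1akmt4, Eif1b, Eif3h and Eif6 with the length trend removed alone, Eif3m with total counts alone, Eif2b2 and Eif2a under 2 alternatives each, Eif3c and Eif3f under 6 each, Eef2kmt under 7 and Eif1a under 10. Of the 20 calls in MRL, 7 held under all 19 alternatives: Eef1a1, Eef2k, Eif2ak1, Eif3a, Eif3m, Eif4e2 and Eif4g1. The other 13 were lost under 1 (Eef1a2), 2 (Eef1akmt2, Eif4a2 and Eif5), 3 (Eif5a), 4 (Eif4enif1), 5 (Eif2b2), 7 (Eif1b, Eif4a1, Eif4g2 and Eif4g3), 8 (Eif4a3) and 9 alternatives (Eif4e3). Most of these losses in MRL came on leaving out 1 library.

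Markers of several cell types were called with surgery as well. Summed over 9 muscle fibre markers, such as Ckm and Acta1, levels ran from 105438 to 144567 CPM in unoperated and 50654 to 117355 CPM in operated BL6 muscle, and from 95832 to 109141 and 64434 to 82104 CPM in MRL muscle. In BL6, 3 of these 9 markers fell and 0 rose, about the 32.8% of all genes called lower, and in MRL 2 fell and 0 rose, where 22.7% of all genes were lower. Adipocyte markers, 4 of 5 measured with Lep not in the table, summed to 208 to 279 CPM and 1209 to 1656 CPM in BL6 and to 262 to 369 CPM and 1086 to 1902 CPM in MRL, and all 4 rose in both strains. Endothelial markers (3 of 4 rose in BL6, 4 of 4 in MRL) and Schwann cell markers (5 of 5 and 4 of 5) also rose. Of 6 macrophage and leukocyte markers 3 rose in BL6 and 0 in MRL, and of 5 fibroblast markers 2 and 0. Single libraries stood out in these 2 sums. Operated BL6 replicate 4 had 152 and 5157 CPM, against 26.1 to 46.1 and 748 to 1429 CPM in its group. Unoperated MRL replicate 1 had 120 and 1907 CPM, against 24.1 to 30.0 and 1110 to 1138 CPM in its group. Of 3 measured satellite cell and myoblast markers, 1 rose and 2 fell in BL6, and 1 rose and 1 fell in MRL. No measured marker was at 0 in any sample, and the 3 neuron markers are not in the table. In whole muscle, fewer cells of a type and less RNA per cell cannot be told apart, and the part of cell makeup in these levels and in the changes of the translation factors was not tested.

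The eEF1A pair moved in opposite directions. Eef1a1 (chr9:78478449-78489151, minus strand), which encodes the form used by most cells, measured 92.4, 100.4, 81.5 and 70.4 CPM in unoperated and 256, 258, 291 and 459 CPM in operated BL6 muscle. In MRL muscle it measured 188, 112, 105 and 119 CPM and 272, 222, 341 and 216 CPM. Every operated sample lay above every unoperated sample of its strain, and the highest unoperated value was the MRL replicate 1 that stood apart. The rise was 1.87 ± 0.23 (log2, SE) in BL6, adjusted p = 2.11e-05 by edgeR's quasi-likelihood test, and 1.01 ± 0.23 in MRL, adjusted p = 0.00399; mean CPM was 3.67 and 2.01 times the unoperated mean. Eef1a2 (chr2:181147653-181157014, minus strand), the muscle and neuron form, measured 1299.6, 1539, 1737 and 1580.0 CPM in unoperated and 636, 899, 623 and 447 CPM in operated BL6 muscle, and the groups did not overlap. In MRL muscle it measured 1066, 1329, 1210.2 and 1294 CPM and 436, 626, 472 and 1112 CPM, and only operated replicate 4 reached into the unoperated range. Eef1a2 fell by 1.24 ± 0.26 in BL6 (adjusted p = 0.000834) and by 0.89 ± 0.26 in MRL (adjusted p = 0.0139). Without operated MRL replicate 3 the MRL fall was no longer called (adjusted p = 0.0515). Without the MRL libraries that stood apart, picked for their position, the change was -1.32 (adjusted p = 0.000268), which is a description only.

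Per kb, Eef1a2 was the most abundant of the 60 mRNAs in all 4 groups, at group means of 738 and 312 CPM per kb in unoperated and operated BL6 and 588 and 317 in MRL muscle. Eef2 came next in each group and Eif1 after it. In both operated groups Eef1a1 followed these 3, at 127 and 105 CPM per kb. The share of Eef1a1 in the summed eEF1A mRNA, from CPM per kb, was 4.54% ± 1.004 in unoperated and 29.7% ± 11.6 in operated BL6 muscle, and 8.33% ± 3.03 and 27.2% ± 10.9 in MRL muscle (SD, n = 4 each). The shares did not overlap between unoperated and operated muscle in either strain: they ran from 3.59% to 5.61% and 19.4% to 46.2% in BL6, and from 6.58% to 12.9% and 13.996% to 37.7% in MRL. The difference was 25.2 points in BL6 and 18.9 points in MRL, each with a two-sided exact permutation p = 0.0286, the smallest that 4 against 4 samples allow (0.0381 adjusted over 4 comparisons). The pair was known to move from earlier results of these data, so the p-values of the share are a description and no independent support. Among unoperated samples the share was 3.79 points higher in MRL, without overlap (exact permutation p = 0.0286, 0.0381 adjusted), and 2.28 points higher without MRL replicate 1 (exact permutation p = 0.0571, the smallest that 4 against 3 allow). Among operated samples MRL differed from BL6 by -2.48 points (exact permutation p = 0.8).

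**Figure D2:**
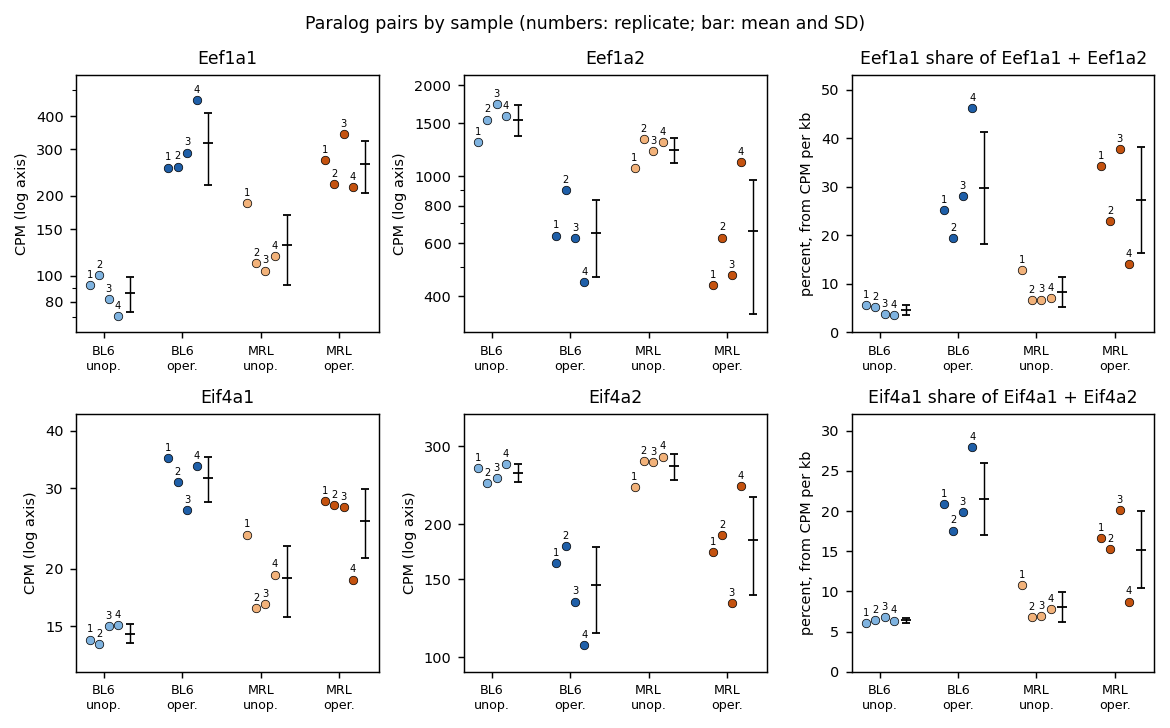
The upper panels plot Eef1a1, Eef1a2 and the Eef1a1 share, and the lower panels Eif4a1, Eif4a2 and the Eif4a1 share, by group. Points are samples numbered by replicate, bars are mean and SD, CPM axes are logarithmic and the share axes start at 0. In BL6 the shares of Eef1a1 (29.7% against 4.54%) and of Eif4a1 (21.5% against 6.40%) were higher in every operated sample.

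The exchange factors of eEF1A moved less. Of the 4 genes in this role, Eef1b2 and Eef1d, which encode the GTP-exchange subunits, rose in BL6 by 0.59 (adjusted p = 0.00022) and 0.69 (adjusted p = 0.00172), and no gene of the role was called in MRL. Eef1b2 ran from 134 to 145 CPM in unoperated and 188 to 249 CPM in operated BL6 muscle. In MRL it ran from 158 to 185 CPM and from 188 to 214 CPM, so that the operated samples lay above the others there too, with a fitted change of 0.22 (adjusted p = 0.0978). Eef1g, the anchoring subunit, changed by 0.01 and 0.27, and Eef1e1, a related protein of the tRNA synthetase complex, by -0.24 and -0.22, with no call in either strain. Eef1g has 3 near copies in the annotation, of which the table listed Gm4366, and its level carries that uncertainty.

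Eef2 (chr10:81176631-81182498, plus strand), the translocase, was not called in either strain. It measured 878, 1111, 1255 and 1174 CPM in unoperated and 881, 1081, 881 and 906 CPM in operated BL6 muscle, and 842, 1016, 901 and 955 CPM and 723, 808, 863 and 1110.2 CPM in MRL muscle. The groups overlapped in both strains, with fitted changes of -0.24 ± 0.15 (adjusted p = 0.174) and -0.08 ± 0.15 (adjusted p = 0.663). With the length trend removed the BL6 change was -0.36 and was called lower (adjusted p = 0.0497). Its kinase did move. Eef2k (chr7:120842831-120907450, plus strand) measured 64.9, 70.6, 89.2 and 92.2 CPM in unoperated and 29.8, 47.3, 35.4 and 29.6 CPM in operated BL6 muscle, and 71.95, 91.6, 83.3 and 90.5 CPM and 39.3, 38.5, 29.5 and 52.4 CPM in MRL muscle. No operated sample reached the unoperated range in either strain. Eef2k fell by 1.16 ± 0.18 in BL6 (adjusted p = 9.86e-05) and by 1.08 ± 0.18 in MRL (adjusted p = 0.00109).

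The remaining elongation genes encode lysine methyltransferases of eEF1A and eEF2. Eef1akmt2 (chr7:132827457-132852673, minus strand) measured 5.44, 5.22, 4.41 and 4.84 CPM in unoperated and 7.51, 7.63, 7.77 and 9.61 CPM in operated BL6 muscle, and 5.41, 5.47, 5.096 and 4.39 CPM and 8.81, 6.28, 6.71 and 6.76 CPM in MRL muscle. The groups did not overlap in either strain, and it rose by 0.71 (adjusted p = 0.000444) and 0.49 (adjusted p = 0.0118). With the length trend removed the changes were 0.32 and 0.30 and neither was called (adjusted p = 0.0611 and 0.0972), and with total counts alone the MRL call was lost (adjusted p = 0.0525). Eef1akmt4 (chr16:20611593-20619011, plus strand) is a low-level gene whose coding sequence is contained whole in a readthrough transcript. It measured 1.95, 2.39, 2.801 and 2.68 CPM and 5.01, 4.42, 5.15 and 3.47 CPM in BL6, and 3.58, 2.71, 2.39 and 2.55 CPM and 4.14, 4.16, 4.01 and 2.18 CPM in MRL muscle. In BL6 it rose by 0.87 (adjusted p = 0.00317) without overlap of the groups, but by 0.43, not called, with the length trend removed (adjusted p = 0.0602). In MRL operated replicate 4 was the lowest of all 8 samples, and the change of 0.37 was not called (adjusted p = 0.188). Without that replicate, picked for its position, it was 0.55 (adjusted p = 0.0299), which is a description and no support for a call. Eef2kmt was called higher in BL6 (0.30, adjusted p = 0.0329; 0.10 and not called with the length trend removed) and not in MRL. Eef1akmt1 was called in neither strain, and lower in both with the length trend removed (-0.57 and -0.51).

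Among the initiation factors, genes of eIF4F and its helpers were mostly lower. Of 11 genes 9 fell and 1 rose in BL6 (32.8% of all genes fell), with a median log2 fold change of -0.58, and 7 fell and 1 rose in MRL (22.7% of all genes fell), with a median of -0.39; the medians of all genes tested were 0.04 and 0.01. Eif4g1 (chr16:20668313-20692884, plus strand), the main scaffold, measured 609.8, 669, 795 and 829.9 CPM in unoperated and 257, 312, 212 and 190.3 CPM in operated BL6 muscle and the groups lay far apart. In MRL muscle it measured 406, 578, 607 and 564 CPM and 194, 240.1, 190.1 and 464 CPM, and the operated group reached the unoperated range only through replicate 4. The fall was 1.58 ± 0.26 in BL6, written as a log2 fold change of -1.58 (adjusted p = 0.000129), and -0.99 ± 0.26 in MRL (adjusted p = 0.00784). The other scaffolds fell as well: Eif4g2, whose product lacks the eIF4E-binding part, had log2 fold changes of -0.76 and -0.40, and Eif4g3, another full-length scaffold, of -0.62 and -0.40.

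The helicase genes moved apart in the way of the eEF1A pair. Eif4a1 (chr11:69666936-69672423, minus strand) measured 14.03, 13.7, 15.01 and 15.1 CPM in unoperated and 34.8, 30.9, 26.9 and 33.6 CPM in operated BL6 muscle, a clear separation. In MRL muscle it measured 23.8, 16.4, 16.8 and 19.4 CPM and 28.1, 27.6, 27.2 and 18.95 CPM, and the groups overlapped through unoperated replicate 1 and operated replicate 4. It rose by 1.12 ± 0.14 in BL6 (adjusted p = 2.14e-05) and by 0.41 ± 0.14 in MRL (adjusted p = 0.0254). The MRL call was lost on leaving out any single MRL library except those 2 (adjusted p = 0.051 to 0.0835). Without both of them, picked for their position, the change was 0.66 (adjusted p = 0.000254), which is a description only. Eif4a2, the more abundant helicase gene in these samples per kb as well as in CPM, measured 268, 248, 254 and 274 CPM and 163, 178, 134 and 107 CPM in BL6, and 243, 278, 276 and 284 CPM and 173, 189, 133 and 244 CPM in MRL muscle. It was lower in every operated BL6 sample and overlapped in MRL at replicate 4. It fell by 0.84 ± 0.17 in BL6 (adjusted p = 0.000659) and by 0.55 ± 0.17 in MRL (adjusted p = 0.0191). Eif4a2 was singled out, and the share of Eif4a1 computed, after the values were seen, so the share carries no test: from CPM per kb it was 6.40% ± 0.303 and 21.5% ± 4.47 in unoperated and operated BL6 muscle, and 8.07% ± 1.84 and 15.2% ± 4.79 in MRL muscle (SD, n = 4 each).

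Cap-binding genes were lower too. Eif4e2, which encodes a cap-binding protein with repressor functions, fell by nearly the same size in both strains (-0.58 and -0.57), and no operated sample reached the unoperated range. Eif4e3 fell in both strains, with log2 fold changes of -0.58 and -0.37, and Eif4enif1, the eIF4E transporter, fell likewise, at -0.48 and -0.28. Eif4e, the main cap-binding subunit, ran from 49.4 to 63.8 CPM in unoperated and 25.7 to 50.4 CPM in operated BL6 muscle and was called there (-0.57, adjusted p = 0.0103); in MRL its change of -0.39 was not called (adjusted p = 0.0815). Eif4b, a helicase cofactor, fell in BL6 (-0.57, adjusted p = 0.00539) and was not called in MRL (-0.28, adjusted p = 0.152). The other cofactor, Eif4h, was not called in either strain (-0.16 and -0.16). Eif4a3 (chr11:119288363-119300089, minus strand), a helicase of the exon junction complex and not of eIF4F, measured 24.99, 26.7, 23.3 and 22.2 CPM and 33.3, 32.3, 33.9 and 34.8 CPM in BL6, and 26.2, 22.7, 22.3 and 25.4 CPM and 30.5, 29.8, 28.9 and 25.3 CPM in MRL muscle. It rose by 0.47 in BL6 without overlap (adjusted p = 0.00032) and by 0.24 in MRL with overlap (adjusted p = 0.0339), where the call was lost without unoperated replicate 2 or 3 or operated replicate 1, 2 or 3 (adjusted p = 0.0711 to 0.0989), with total counts alone (0.121), with only the groups compared (0.0646) and with the length trend removed, where the change was 0.11 (0.192).

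**Figure D3:**
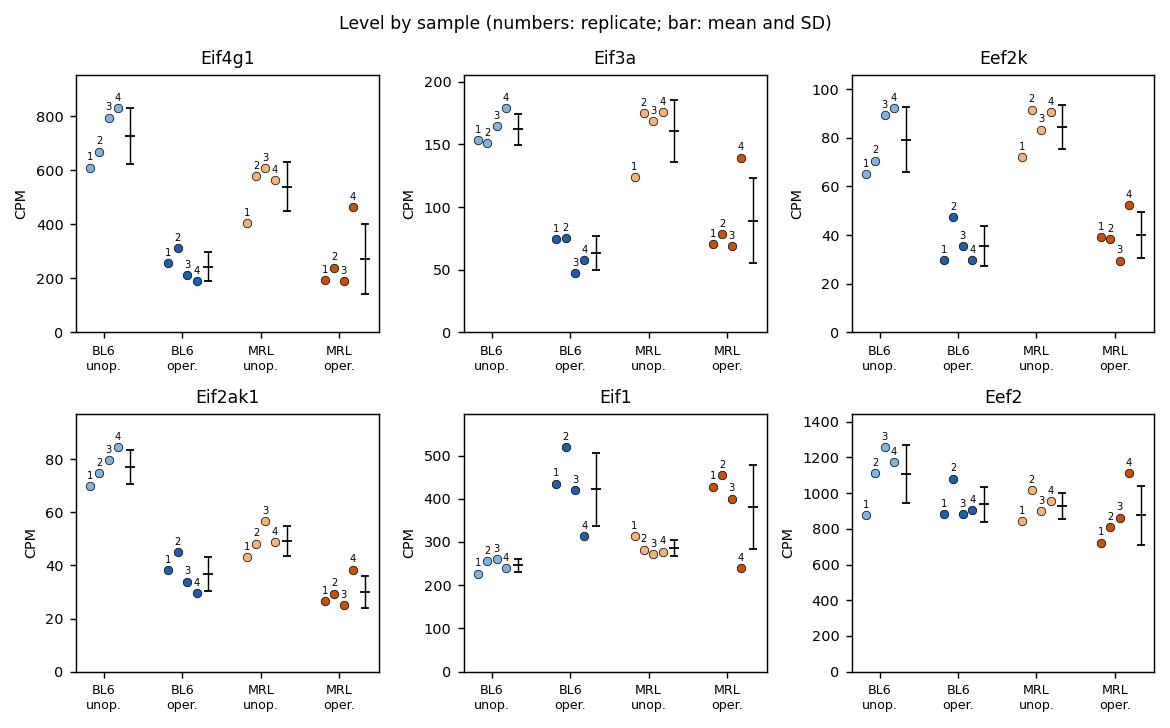
Levels in CPM, on axes that start at 0, of Eif4g1, Eif3a, Eef2k, Eif2ak1, Eif1 and Eef2 in the 16 samples, with replicate numbers beside the points and the mean and SD of each group. Operated samples lie below unoperated samples for Eef2k and Eif2ak1 in both strains, and operated MRL replicate 4 lies above the rest of its group for Eif4g1 and Eif3a.

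The 13 eIF3 subunits did not move as one complex. In BL6 4 rose, 3 fell and 6 were not called, and in MRL 0 rose, 2 fell and 11 were not called. The called share was 53.8% and 15.4%, below the 67.9% and 45% of all genes, which also moved both ways. Eif3a (chr19:60761117-60790658, minus strand), the largest subunit and a core of the assembly, measured 154, 151, 164 and 179 CPM in unoperated and 74.2, 75.4, 47.2 and 57.7 CPM in operated BL6 muscle. In MRL muscle it measured 124, 175, 169 and 176 CPM and 70.6, 78.3, 68.9 and 139 CPM, with operated replicate 4 above unoperated replicate 1. Eif3a fell by 1.35 ± 0.22 in BL6 (adjusted p = 0.000102) and by 0.85 ± 0.21 in MRL (adjusted p = 0.00663). Eif3m, a subunit of the outer module, fell in both strains (-0.36 and -0.54). With all libraries in the fit it was the only gene called in both whose change was larger in MRL. Eif3c, which with Eif3a encodes the core pair, fell in BL6 alone (-0.31, adjusted p = 0.0256; in MRL -0.12, adjusted p = 0.415). The subunits that rose in BL6 were Eif3k (0.69), Eif3h (0.42), Eif3d (0.39) and Eif3f (0.31), with every operated sample above the unoperated range for each of the 4. With the length trend removed Eif3h was at -0.02 (adjusted p = 0.877) and Eif3f at 0.14 (adjusted p = 0.307), neither called. In MRL the same subunits had changes of 0.30, 0.21, 0.22 and 0.05, none called. Eif3b, Eif3e, Eif3g, Eif3i, Eif3j1 and Eif3l were called in neither strain, with fitted changes between -0.18 and 0.23.

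Of the 3 eIF2, 5 eIF2B and 4 eIF2 kinase genes, 1 of each fell in BL6 and 1 kinase gene rose, and in MRL 1 eIF2B and 1 kinase gene fell. Over all genes 67.9% were called in BL6 and 45% in MRL. Of the eIF2 subunits, Eif2s2 (beta) fell in BL6 (-0.61, adjusted p = 0.00615) and was not called in MRL (-0.38, adjusted p = 0.0825), and Eif2s1 (alpha, the site the kinases act on) and Eif2s3x (gamma) were called in neither. Of the 5 eIF2B subunits, Eif2b2 (beta) fell by nearly equal amounts in both strains (-0.42 and -0.41), and Eif2b1, Eif2b3, Eif2b4 and Eif2b5 were not called, at changes between -0.27 and 0.17. Eif2ak1 (chr5:143817788-143904251, plus strand), the heme-regulated kinase HRI, measured 69.8, 74.7, 79.5 and 84.4 CPM in unoperated and 38.3, 44.9, 33.9 and 29.7 CPM in operated BL6 muscle, and 43.04, 48.2, 56.7 and 48.8 CPM and 26.6, 29.4, 25.03 and 38.4 CPM in MRL muscle. Operated samples lay below unoperated samples in both strains, and the unoperated MRL samples lay below all unoperated BL6 samples. It fell by 1.07 ± 0.15 in BL6 (adjusted p = 3.64e-05) and by 0.72 ± 0.15 in MRL (adjusted p = 0.00249). Eif2ak3, the endoplasmic reticulum kinase PERK, rose in BL6 (0.51, adjusted p = 0.00794) and was not called in MRL (0.33, adjusted p = 0.0854). Eif2ak4, the amino acid sensor GCN2, and Eif2ak2, the double-stranded RNA sensor PKR, were called in neither.

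Eif2ak2 (chr17:78852564-78882573, minus strand) measured 7.42, 5.79, 5.42 and 5.33 CPM in unoperated and 5.13, 3.68, 5.83 and 7.31 CPM in operated BL6 muscle, and 6.82, 6.01, 7.58 and 5.69 CPM and 10.9, 8.95, 8.45 and 7.19 CPM in MRL muscle. The operated MRL samples were the highest group, and the groups overlapped in both strains. The fitted change was -0.12 in BL6 (adjusted p = 0.587), a sign that turned to 0.03 without operated BL6 replicate 2, and 0.44 in MRL (adjusted p = 0.0719).

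Of the 8 start-site genes 3 rose and 3 fell in BL6, and 1 rose and 1 fell in MRL. The called share was thus 75% and 25%, against 67.9% and 45% of all genes. Eif1 (chr11:100319885-100322096, plus strand), whose product keeps the scanning ribosome open until it meets a start codon, measured 227, 255, 261 and 240.2 CPM in unoperated and 435, 519, 419.8 and 314 CPM in operated BL6 muscle, and 313, 283, 271 and 278 CPM and 428, 455, 401 and 239 CPM in MRL muscle. In BL6 the groups did not overlap and Eif1 rose by 0.78 (adjusted p = 0.00154). In MRL 3 operated samples lay above all unoperated ones and replicate 4 below them, and the change of 0.41 was not called (adjusted p = 0.0719). Without that replicate, picked for its position, it was 0.58 (adjusted p = 0.00287), which is a description and no support for a call. Eif1b (chr9:120492232-120495330, plus strand), a paralog identical to Eif1 at 81.1% of the coding bases, measured 33.8, 34.1, 30.9 and 31.2 CPM and 53.6, 56.3, 49.6 and 45.6 CPM in BL6, and 43.1, 37.5, 34.6 and 40.1 CPM and 50.3, 53.9, 47.96 and 39.2 CPM in MRL muscle. It rose by 0.66 without overlap in BL6 (adjusted p = 0.000108) and by 0.30 with overlap in MRL (adjusted p = 0.031), a call that was lost without unoperated replicate 2 or 3 or operated replicate 1, 2 or 3 (adjusted p = 0.0638 to 0.0963). With the trend of change on gene length removed, described below, the change of Eif1b was 0.05 in BL6 and -0.02 in MRL and was called in neither.

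Eif1ax (chrX:159372178-159389928, plus strand), the X-linked eIF1A gene, measured 104, 96.6, 108 and 114 CPM in unoperated and 65.1, 80.9, 61.8 and 55.3 CPM in operated BL6 muscle, and 95.6, 109.9, 114 and 118 CPM and 89.8, 95.6, 88.01 and 95.4 CPM in MRL muscle. Operated samples were below unoperated samples in both strains, in MRL by less than the rounding of the nearest values. It fell by 0.69 in BL6 (adjusted p = 0.000129), and the MRL change of -0.25 was not called (adjusted p = 0.0851). The autosomal Eif1a rose in BL6 (0.36, adjusted p = 0.0475) with overlapping groups, and was not called in MRL (0.17). Eif5, which triggers GTP hydrolysis by eIF2 at the start codon, fell in both strains (-0.78 and -0.50) without overlap. Eif2a, which encodes an alternative tRNA-binding factor, fell in BL6 (-0.37) and was not called in MRL (-0.16). Eif1ad and Eif2d were called in neither strain. Of the later factors, Eif6, which keeps the ribosomal subunits apart, rose in BL6 alone (0.37, adjusted p = 0.0042; in MRL 0.06, adjusted p = 0.62), but was not called with the length trend removed (0.17, adjusted p = 0.105). Eif5a, the hypusine-bearing factor that helps ribosomes past difficult peptide bonds, fell in MRL (-0.37, adjusted p = 0.0189) and was not called in BL6 (-0.19, adjusted p = 0.164). Eif5b, which joins the subunits, was called in neither (0.00 and 0.19).

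Of the 48 initiation genes 11 rose and 18 fell in BL6 (median -0.14) and 3 rose and 13 fell in MRL (median -0.14). Among the 12 elongation genes 6 rose and 2 fell in BL6 (median 0.21), and 2 rose and 2 fell in MRL (median 0.10). In BL6 60.4% of the initiation and 66.7% of the elongation genes were thus called, against 67.9% of all genes, and in MRL 33.3% of each class against 45%, so neither class was called more often than genes at large. The medians of all genes tested were 0.04 and 0.01. These counts describe the genes, and no test of one class against the other was made. The median of the elongation genes in BL6 was -0.05 with the trend on gene length removed.

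Summed levels show another side, since few genes hold most of each sum. The 48 initiation genes together had 5256 ± 318 CPM in unoperated and 4153 ± 613 CPM in operated BL6 muscle, and 5039 ± 270 and 4253 ± 254 CPM in MRL muscle (SD, n = 4 each). The 12 elongation genes had 3188 ± 358 and 2468 ± 302 CPM in BL6, and 2778 ± 161 and 2323 ± 395 CPM in MRL. Both sums were thus lower on average after surgery, and the ratio of the initiation to the elongation sum was nearly level, at 1.66, 1.68, 1.82 and 1.86 in the 4 groups in the same order. Eef1a1, Eef1a2 and Eef2 made up 85.5% of the elongation sum in unoperated and 77.2% in operated BL6 muscle, and 82.2% and 76.8% in MRL. Without them the mean elongation sum went the other way, at 459 ± 21.8 and 563 ± 83.1 CPM in BL6 and 494 ± 31.9 and 523 ± 47.96 CPM in MRL. The groups did not overlap in BL6 (429 to 480 and 488 to 682 CPM). In MRL they did (452 to 519 and 456 to 559 CPM), and the difference was smaller than either SD. Operated MRL replicate 4 again lay apart, with an elongation sum of 2895 CPM against 1987 to 2215 CPM in the other 3.

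**Figure D4:**
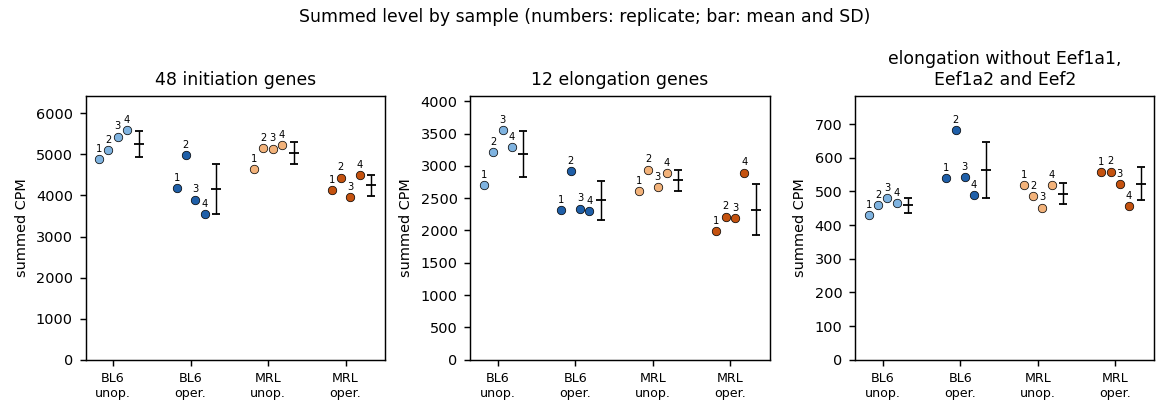
Summed CPM per sample of the 48 initiation genes, the 12 elongation genes, and the elongation genes without Eef1a1, Eef1a2 and Eef2, with replicate numbers and the mean and SD of each group on axes that start at 0. The first 2 sums are lower on average in operated muscle of both strains, and the last is higher on average (563 against 459 CPM in BL6).

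The strain comparison asks whether MRL muscle answered surgery differently. No translation factor was called for a difference between the strains in the surgery effect (edgeR's quasi-likelihood test, 0 of 60, where 0.248% of all genes were called, 0.154% higher and 0.0939% lower). Of the 60, 7 had an unadjusted p under 0.05, against 1843 of all 11709 genes, so these 7 do not stand out from the table. DESeq2 called 1 translation factor and limma voom 0. Eif4a1 had the smallest p: its rise was smaller in MRL by a fitted interaction of -0.71 ± 0.20 (log2, MRL minus BL6, adjusted p = 0.135), and it is the gene that DESeq2 called (adjusted p = 0.0461). Eif1ax followed, with an interaction of 0.44 ± 0.16 (adjusted p = 0.23), a smaller fall in MRL. The other 5 were Eef1a1 (-0.87), Eef1b2 (-0.37), Eif1b (-0.36), Eif3k (-0.39) and Eif6 (-0.31), all with the less positive change in MRL. The interaction also tracked gene length, described below. With the length trend removed, the interactions of Eef1a1, Eef1b2 and Eif1b were -0.73, -0.24 and -0.07. The larger number of calls in BL6 is therefore not shown to be a difference between the strains.

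Between the strains directly, few translation factors differed. Among unoperated samples 1 of 60 was called, against 10.4% of all genes (5.02% higher and 5.36% lower in MRL): Eif2ak1, -0.65 ± 0.15 in MRL relative to BL6 (adjusted p = 0.00794), from the values given above, which did not overlap. Among operated samples 2 were called, against 12.9% of all genes (7.6% higher and 5.27% lower in MRL). Eif1ax was higher in MRL by 0.49 ± 0.11 (adjusted p = 0.00935), without overlap, and Eif2ak2 by 0.69 ± 0.19 (adjusted p = 0.0294), with overlap. Eif1ax was not called with the 2 operated groups fitted alone (adjusted p = 0.076). Eif2ak2 was not called there either (0.156), nor with total counts alone (adjusted p = 0.117). Its call was also lost without operated BL6 replicate 1, 2 or 3 or operated MRL replicate 1 or 2 (adjusted p = 0.0562 to 0.087). The count of 2 was 1 without operated BL6 replicate 1 or 3 or operated MRL replicate 1 or 2, and 4 without operated BL6 replicate 2 or 4 or operated MRL replicate 3 or 4. The surgery and strain comparisons share samples and are not independent.

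Gene length moved with the change. Across the 60 genes Spearman's rho between exonic length and the log2 fold change was -0.48 in BL6 and -0.36 in MRL. Across 11707 genes with a length it was -0.28 and -0.16. For the interaction of strain and surgery, rho was 0.55 across the 60 genes and 0.36 across the 11707. These are descriptions across genes, which share the same libraries. The median exonic length was 2678 bp for the 17 genes that rose in BL6 and 6063 bp for the 20 that fell. Among the shortest 2344 genes (up to 2515 bp) 7 of 13 translation factors rose and 3 fell in BL6, and among the longest 2342 genes (7806 bp or more) 0 of 4 rose and 3 fell. The medians of all genes of these lengths were 0.43 and -0.28. With a length trend fitted in each sample and removed, 9 translation factors rose and 26 fell in BL6 and 3 and 16 in MRL. In BL6 9 calls were lost (Eef1akmt2, Eef1akmt4, Eef2kmt, Eif1a, Eif1b, Eif2a, Eif3f, Eif3h and Eif6) and 7 were gained, all lower (Eef1akmt1, Eef1e1, Eef2, Eif1ad, Eif2b1, Eif2b5 and Eif5a). In MRL 4 were lost (Eef1akmt2, Eif1b, Eif4a3 and Eif4g3) and 3 were gained (Eef1akmt1 and Eif2b1 lower, Eif2ak3 higher). Eef1a1, Eef1a2, Eif4a1, Eif4g1, Eif3a, Eef2k and Eif2ak1 were still called in the same direction in both strains. Whether length itself plays a part was not tested.

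**Figure D5:**
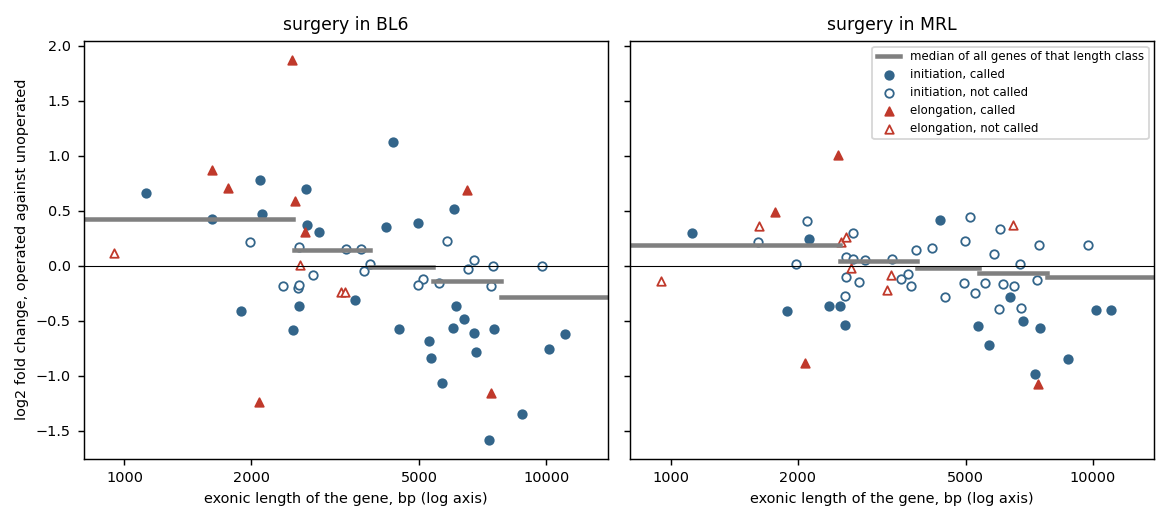
The fitted log2 fold change of the 60 genes against exonic length (log axis) in each strain, circles for initiation and triangles for elongation genes, filled where called. Grey lines are medians of all genes in 5 classes of length, from 0.43 to -0.28 in BL6, and the longer translation factors lie mostly below 0.

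Lists of other genes of the translation machinery are read here against the 67.9% of all genes called in BL6 (35.1% higher, 32.8% lower) and the 45% in MRL (22.3% higher, 22.7% lower). For cap control, mTORC1, the integrated stress response and the mitochondrial factors in BL6 the called share was close to or below that background. Termination and recycling factors, which release finished proteins and free the ribosome, fell in 5 of 7 in BL6 (1 rose) and 4 of 7 in MRL (0 rose), with medians of -0.66 and -0.33. Etf1, the release factor, changed by -0.68 and -0.46 in BL6 and MRL, Gspt1, its GTPase partner, by -0.70 and -0.40, and Pelo, a ribosome rescue factor, by -0.76 and -0.82. Of 9 mitochondrial translation factors the same 5 fell and 0 rose in each strain. The largest changes were those of Gfm1 (-1.07 and -0.70), Gfm2 (-0.98 and -0.56) and Mtrf1 (-0.93 and -0.68), and Mtif2 and Mtif3 were also called in both. Of 10 measured cap-control genes 5 fell and 1 rose in BL6 and 3 fell and 1 rose in MRL. Eif4ebp2, a repressor that sequesters eIF4E, fell by 1.23 and 1.13, Larp1, which represses mRNAs that encode ribosomal proteins and translation factors, by 1.48 and 0.84, and Pabpc4, a poly(A)-binding protein, by 0.97 and 0.66.

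The mTORC1 pathway, which controls eIF4F through the eIF4E-binding proteins, had 8 of 15 genes lower and 2 higher in BL6, and 5 lower and 1 higher in MRL. Deptor, an inhibitor of the kinase, changed by -1.63 and -0.73, Tsc1, an upstream brake, by -1.24 and -0.77, and Rps6kb1, the kinase of ribosomal protein S6 and of eEF2K, by -0.997 and -0.42. Of 12 measured genes of the integrated stress response, the program that follows eIF2 phosphorylation, 5 rose and 3 fell in BL6, and 3 rose and 2 fell in MRL. Trib3 rose by 1.19 and 1.78, while Chac1 fell by 2.503 and 1.69 and Vldlr by 1.41 in each strain, so the called genes went both ways. Of the 9 enzymes that modify eIF5A (hypusine) or eEF2 (diphthamide), 4 rose and 3 fell in BL6 and 0 rose and 2 fell in MRL, with Dph1 (-1.24 and -0.82) and Dph6 (-0.31 and -0.29) called in both.

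Promoter letters were searched in the 250 bases before the start (RefSeq, GRCm38.p6), matched for 49 of the 60 genes and for 9128 tested genes, on both strands. The E-box CANNTG was in 44.9% of the 49 and in 56.9% of the 9128, the ETS motif CCGGAAGT in 4.08% and 5.93%, the TATA box TATAAA in 8.16% and 6.52%, and the motif of MEF2, a muscle transcription factor, in 4.08% and 2.8%. No match was found in the 49 for the CRE motif TGACGTCA, present in 2.73% of all. The differences were not tested. These are matches of letters and say nothing of binding.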

How the data were processed

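RNA-seq of 16 whole-muscle samples (4 groups of 4) was analysed from the authors' deposited table of raw counts per gene, 11710 genes. FastQC, STAR, edgeR and the build mm10 are named in the submitters' processing notes; the counting program, gene annotation and strand setting are not given in the sources used here. The authors' own table of comparisons was not used here.

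Counts were scaled by TMM and fitted with edgeR 4.0.16 (R 4.3.3), with 1 mean per group over all 16 samples and filterByExpr defaults, which removed 1 gene. The quasi-likelihood test was adjusted over 11709 genes (Benjamini-Hochberg), and the same fit recovered known changes in counts simulated from these samples. Coordinates, lengths and transcripts come from GENCODE M21 (GRCm38, to which mm10 corresponds). Shares were compared with two-sided exact permutation tests. The replicate numbers shared by the labels were not used as pairs, because the labels do not say that they pair animals. Deviations of same-numbered samples had mean correlations of -0.141 and 0.092 for surgery in BL6 and MRL, and 0.16 and 0.165 between unoperated and operated strains. For different numbers the means were 0.053, -0.041, -0.046 and -0.044. The lowest same-number correlation was -0.474 to -0.096. With 4 pairs each, these values cannot settle whether samples were paired. No 2 replicates agreed within sampling noise.

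The genes and lists were chosen with earlier results of these data known. All 60 genes are named; values in every sample are given for Eef1a1, Eef1a2 and Eef2, for the 5 largest called rises and falls in each strain, for called genes of the strain comparisons, and, with no interaction called, for the 2 smallest interaction p. From each list of other genes, up to 3 with the largest change among those called in both strains are named. Alternatives were RLE factors, total counts alone, mitochondrial genes left out, DESeq2 1.42.0, limma voom (limma 3.58.1), no filter, a mean of at least 5 CPM, only the groups compared, a replicate block, each library left out and, added after seeing the data, both outlying MRL libraries left out and a length trend removed.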

Additional observations from a re-analysis of the deposited data

Results flagged for a closer look

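In 10 of the 76 groups of 4 samples examined, the value of 1 sample lay farther from the rest than Dixon's 95% limit allows. Chance alone would mark about 1 in 20 independent groups. These groups share libraries, and the sums and shares hold genes also examined singly, so the 10 cannot be set against that rate. Unoperated MRL replicate 1 accounted for 4: Eef1a1 at 188.05 CPM against 104.7 to 119 CPM, Eif3a at 124 CPM against 169 to 176 CPM, the initiation sum at 4639.7 CPM against 5139.9 to 5231 CPM, and the Eef1a1 share at 12.9% against 6.58% to 7.13%. Operated MRL replicate 4 accounted for 3: Eef1akmt4 at 2.18 CPM against 4.01 to 4.16 CPM, Eif3a at 139 CPM against 68.9 to 78.3 CPM, and Eif4a1 at 18.95 CPM against 27.2 to 28.1 CPM. In operated BL6 muscle, replicate 2 was high for Eef2 at 1081 CPM against 881 to 906 CPM and for the elongation sum at 2919.7 CPM against 2300.5 to 2339 CPM. Replicate 4 of that group was high for Eef1akmt2 at 9.61 CPM against 7.51 to 7.77 CPM.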

How the results depend on the processing

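In BL6 the count of 37 called genes was 33 to 41 over the alternatives; in MRL the count of 20 was 31 without both outlying MRL libraries and 9 to 30 on leaving out 1 library. Scaling by total counts alone moved the median of all genes by over 0.1 in BL6 (0.04 to 0.18) and between unoperated strains (0.01 to 0.15); there the initiation and elongation medians were 0.13 and 0.28, 3 genes were called between unoperated and 4 between operated strains, the MRL surgery calls were 8 higher and 13 lower, and Eif2ak2 in BL6 was 0.0574. Between unoperated strains DESeq2 called 2 (1 higher, 1 lower) and the groups fitted alone 7 (5 higher, 2 lower), as the all-gene count went from 1216 to 2438. Between operated strains DESeq2 called 7 (3 higher, 4 lower), the groups fitted alone 0 (all genes 1507 to 575), the fit without both MRL libraries 4, and leaving out 1 library 1 to 4. For the interaction DESeq2 called 1 translation factor; over all genes the count of 29 was 250 with DESeq2, 14 with total counts, 12 with the length trend removed and 1 to 69 on leaving out 1 library. With the length trend removed the elongation median was -0.0509 in BL6 and -0.0299 in the interaction, and Eif1b in MRL was -0.0195. Eif2ak2 in BL6 was -0.299 to 0.0272 on leaving out 1 library, the highest without operated replicate 2. The Eef1a1 share differences, on leaving out 1 library, were 19.7 to 28.6 points in BL6, 15.4 to 23.3 in MRL, 2.28 to 4.37 between unoperated and -5.98 to 3.01 between operated strains (1.92 without operated MRL replicate 4, 3.01 without operated BL6 replicate 4); 4 against 3 samples cannot reach an exact p under 0.0571. The replicate block gave 36 and 22 called genes in BL6 and MRL, 0 in the interaction, 1 and 2 between strains, and 2 genes in all for the interaction; the mean correlation of same-numbered samples was -0.14, 0.09, 0.16 and 0.17, and 0, 4, 4 and 3 of 8 samples deviated most like their own number. Eef1akmt4 and Eif2s3x did not pass the filter of 5 CPM. Causes of these shifts were not tested. Near copies limit abundant genes as well: Eif1 had 13, Eef1a1 had 7 and Eef2 had 1. The unknown strand setting is a further limit, and depth limits the low genes most.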

Other observations

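Between the unoperated strains, 4 of the 12 measured genes of the integrated stress response were higher in MRL and 0 lower, where 5.02% of all genes were called higher, and 8 were not called. They were named after their values were seen. Asns, which makes asparagine, ran from 0.978 to 2.10 CPM in unoperated BL6 and 4.42 to 6.36 CPM in unoperated MRL muscle, a log2 difference of 1.71 ± 0.25 (SE; adjusted p = 0.000183 by edgeR's quasi-likelihood test). Psat1, of serine synthesis, ran from 1.56 to 2.43 CPM and 3.42 to 4.68 CPM (1.01 ± 0.24, adjusted p = 0.0126). The transcription factor Atf5 ran from 66.7 to 82.5 CPM and 99.2 to 119 CPM (0.58 ± 0.12, adjusted p = 0.00422), and Ddit3, which encodes CHOP, from 18.4 to 21.9 CPM and 26.9 to 55.2 CPM (0.84 ± 0.24, adjusted p = 0.0333). The groups did not overlap for any of the 4 genes. Atf4, the transcription factor at the centre of the pathway, was not among the called genes.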
